A study of Mus musculus with 2 samples.

Results

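The alpha and beta globin loci of a mouse B cell lymphoma were examined in a map of accessible chromatin made by DNaseI sequencing. Members were all DNaseI sites that overlapped, by at least 1 base, either of 2 windows of the mm9 genome: 32080000 to 32220000 of chromosome 11 (140 kb), chosen to hold the alpha globin genes Hba-a1 and Hba-a2, and 110900000 to 111080000 of chromosome 7 (180 kb), chosen to hold the beta globin genes Hbb-b1 and Hbb-b2. There were 20 such sites among the 53593 of the whole list, 13 in the alpha window and 7 in the beta window. The windows were set by the position of the genes and not by the sites, although earlier results of these data were known.

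DNaseI cuts DNA that nucleosomes leave free, and stretches rich in cut ends are listed as sites. The tumour, called T6, arose in the Eμ-myc mouse on a C57/Bl6 background, in which the immunoglobulin heavy chain enhancer drives Myc in B cells. It was Arf-/- and Trp53+/+, had received no treatment, and was taken from lymph nodes as a cell suspension that was not purified, so other node cells could be included. The study had 2 libraries of this tumour, a DNaseI library and an input library, and only the site list of the DNaseI library was analysed here. There was 1 library, without a replicate, so values are described and not tested. Intervals are exact 95% Poisson or Clopper-Pearson intervals and cover counting error only. They take sites as independent of each other, although sites cluster, so they can be too narrow. Sites carry no read count or score, so their strength and the depth of the library are unknown, and width is the measure of size.

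Haemoglobin of the adult red cell is built from alpha and beta chains, and both gene clusters are strongly transcribed in erythroid cells and silent in B cells. The settings of the clusters differ. The alpha genes lie beside widely expressed genes, and their erythroid enhancers sit in and near the introns of Nprl3, whose protein belongs to the GATOR1 complex that restrains mTORC1. The beta genes lie inside an array of olfactory receptor genes, which are expressed in sensory neurons of the nose, and they are driven by a locus control region upstream of the embryonic gene Hbb-y. In C57BL/6 mice the adult beta genes are named Hbb-bs and Hbb-bt. The gene table used here, of assembly GRCm38.p6, gives the order Il9r, Snrnp25, Rhbdf1, Mpg, Nprl3, Hba-x, Hba-a1, Hbq1b, Hba-a2, Hbq1a on chromosome 11. On chromosome 7 it gives Olfr67, Hbb-bt, Hbb-bs, Hbb-bh3, Hbb-bh2, Hbb-bh1, Hbb-y, Olfr66, with the pseudogene Gm15115 between Hbb-bs and Hbb-bh3. No coordinate of that assembly was set against the mm9 sites, so which site lies at which gene was not analysed here.

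The promoters of the adult genes show what kind of sequence lies in these windows, and are given as the 150 bases before the transcription start in RefSeq's GRCm38.p6. The stretches are chr11:32283522-32283671 for Hba-a1 and chr11:32296342-32296491 for Hba-a2, both on the plus strand. Those of the beta genes are chr7:103813924-103814073 for Hbb-bt and chr7:103827929-103828078 for Hbb-bs, both on the minus strand. Capitals mark matches, on either strand, to GATAA (the core of GATA factor sites), CACCC (the box bound by Klf1 in erythroid cells), CCAAT (the CCAAT box), TATAA and CATAAA (forms of the TATA box). In Hbb-bt, 2 CCAAT matches on opposite strands run into each other.
Hba-a1: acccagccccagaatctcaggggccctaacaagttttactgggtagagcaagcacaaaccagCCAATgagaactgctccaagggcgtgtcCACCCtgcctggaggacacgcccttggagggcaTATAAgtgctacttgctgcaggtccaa
Hba-a2: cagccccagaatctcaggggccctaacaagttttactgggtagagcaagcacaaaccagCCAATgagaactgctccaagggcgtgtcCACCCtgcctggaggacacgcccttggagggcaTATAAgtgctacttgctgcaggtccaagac
Hbb-bt: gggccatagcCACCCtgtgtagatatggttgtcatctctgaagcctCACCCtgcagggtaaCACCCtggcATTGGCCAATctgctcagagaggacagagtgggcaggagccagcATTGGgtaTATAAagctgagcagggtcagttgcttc
Hbb-bs: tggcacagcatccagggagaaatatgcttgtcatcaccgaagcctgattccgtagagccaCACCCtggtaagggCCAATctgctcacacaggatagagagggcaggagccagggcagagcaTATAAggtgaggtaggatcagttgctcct
All 4 stretches held the CACCC box, the CCAAT box and TATAA, while the GATAA matches of these promoters lie further from the start than the bases shown. These matches are letters in a sequence, and nothing on binding in this tumour follows from them.

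The alpha window was rich in accessible sites. Its 13 sites came to 92.9 per Mb (49.4 to 159) and covered 6.47% of the window. Among 17626 tiles of 140 kb laid along the autosomes, 6.46% held as many sites or more, 53.6% held none, and the mean was 3.01. Among the tiles of chromosome 11 alone, 14.1% held as many sites or more. By width, 8 sites lay between 265 and 377 bp and 5 between 869 and 1723 bp, with none in between. This split was read from the 13 widths themselves. In the 200 kb to the right of the window, sites of 503 to 782 bp fell within that gap. The median of the 13 was 372 bp, against 663 bp over the whole list (quartiles 352 and 1063 bp). Sites under 400 bp made up 61.5% of the 13 (31.6 to 86.1%), against 30.5% of the whole list. Only 1 of the 13 was wider than 1500 bp, the limit used for wide sites, against 11.4% of the whole list.

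Most of the alpha sites lay in the left part of the window, taken in the direction of the mm9 coordinates. The first 70 kb held 10 sites, and the last 70 kb held 3. Of these 10 sites, 9 formed a run of 43.1 kb (32104628 to 32147733) in which neighbours were at most 12.5 kb apart. The run opened with a site of 1360 bp (32104628 to 32105987) and one of 869 bp (32116722 to 32117590). Then came 3 sites close together, of 372 bp (32121384 to 32121755), 265 bp (32122705 to 32122969) and 377 bp (32123028 to 32123404), the latter pair separated by 58 bp. The next were a site of 1268 bp (32126005 to 32127272) and the widest of the window, of 1723 bp (32137267 to 32138989), which was wider than 92.6% of the whole list. A pair of small sites, of 294 bp (32144806 to 32145099) and 315 bp (32147419 to 32147733), closed the run. Along the run, a pair of broad sites, 3 small ones, another pair of broad ones and a pair of small ones thus followed each other. The tenth site of the left part stood alone near the edge of the window, with 290 bp (32082721 to 32083010) and 21.6 kb to the next.

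The right part of the alpha window was sparser. It held a broad site of 1352 bp (32166850 to 32168201), 19.1 kb from the run. After 18.4 kb came a pair of sites of 289 bp each (32186570 to 32186858 and 32186930 to 32187218), which lay 71 bp apart. From there 33.9 kb passed without a site, and the last 32.8 kb of the window held none. By cover, sites took up 10.2% of the left 70 kb and 2.76% of the right. Counting intervals of these parts overlapped, at 68.5 to 263 sites per Mb on the left and 8.84 to 125 on the right.

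**Figure D1:**
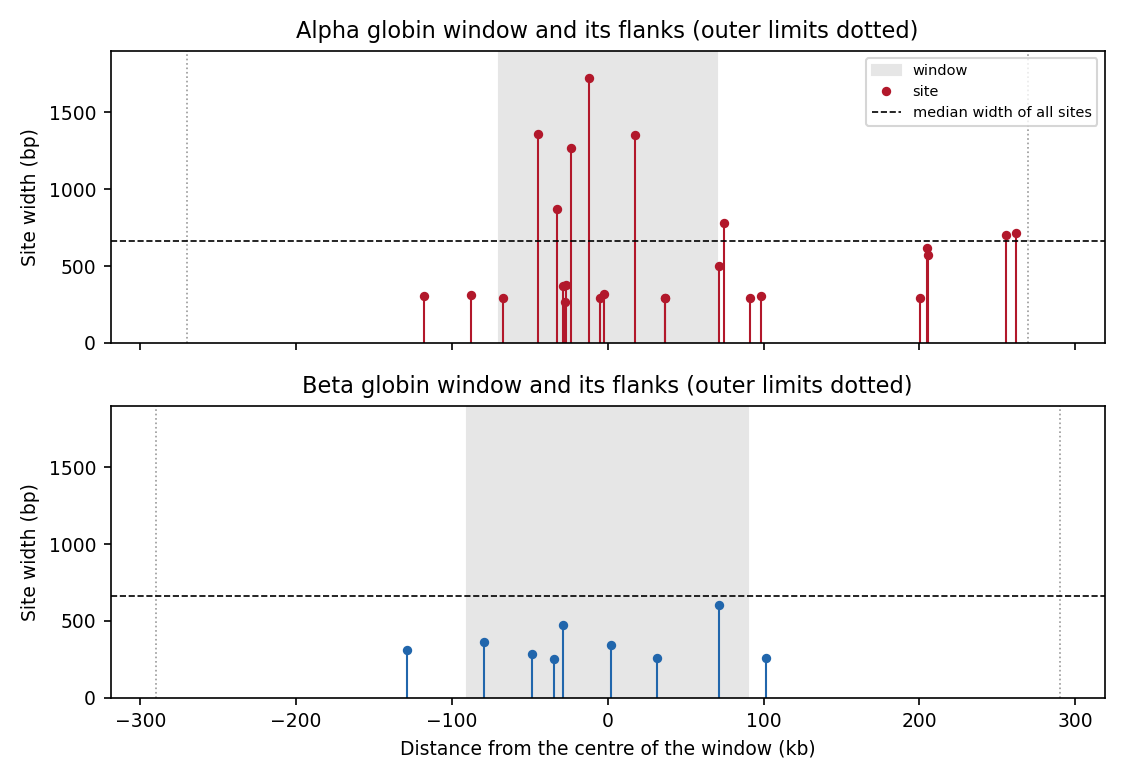
Width of each DNaseI site (bp, vertical) against its distance from the centre of the window (kb, horizontal), for the alpha window (top) and the beta window (bottom), each shaded, with flanks of 200 kb whose outer limits are dotted lines. The alpha window holds 5 sites above 800 bp, while the 7 beta sites all lie below the dashed median of the whole list, 663 bp.

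The beta window also held sites, all of them small. Its 7 sites came to 38.9 per Mb (15.6 to 80.1) and covered 1.43% of the window. Among 13707 autosomal tiles of 180 kb, 22.6% held as many sites or more, 50.2% held none, and the mean was 3.86. The beta window was thus not empty in this list, and its count was above that of the average tile. The widths ran from 254 to 606 bp with a median of 343 bp, and 5 of the 7 were under 400 bp (71.4%, 29.0 to 96.3%). None of the 7 was wider than the median of the whole list, a share of 0% with an exact upper limit of 41.0%; the simpler limit of 3 counts that a count of 0 allows is 42.9%. Of the 372 tiles that held exactly 7 sites, 3 (0.806%) had no site wider than that median. This width comparison was chosen after the widths had been seen, and gives the background of the list and not a test.

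The beta sites were spread along the window. The first was 361 bp wide (110910658 to 110911018) and the second, 30.3 kb on, 282 bp (110941306 to 110941587). After 14.0 kb came the closest pair of the window, a site of 254 bp (110955617 to 110955870) and one of 474 bp (110960879 to 110961352), 5.01 kb apart. A site of 343 bp (110991647 to 110991989) followed near the centre, and one of 261 bp (111021806 to 111022066) beyond it, with gaps of 30.3 and 29.8 kb. The widest, of 606 bp (111061388 to 111061993), lay 39.3 kb further on. No site of the beta window had another within 5 kb, whereas 6 of the 12 gaps inside the alpha window were at most 5 kb. The median gap was 30.1 kb in the beta window and 4.80 kb in the alpha window, against 7.05 kb in the whole list.

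Set side by side, the alpha window had 2.39 times the site density of the beta window. The counting interval of that ratio, 0.885 to 7.07, includes equal density. It takes sites as independent of each other and can be too narrow, since sites cluster. The contrast in cover was larger, 4.51 times, because the broad sites were all in the alpha window. No interval was computed for this ratio, which rests on the widths of few sites. The median widths, 372 and 343 bp, were close. Sites of under 400 bp occurred in both windows, and the alpha window had in addition 5 sites of 869 bp or more, for which the beta window had no counterpart. Sites of that width are common in the list, as the site of 869 bp was wider than only 65.5% of it. Sites wider than the median of the list made up 38.5% of the alpha sites (13.9 to 68.4%) and 0% of the beta sites (0 to 41.0%). These intervals overlapped. How far small sites stand above the input could not be seen, since the input library was not analysed here.

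Every flank held fewer sites per Mb than the window it adjoined, though the intervals of window and flank overlapped except for the left alpha flank. Since sites cluster, these intervals can be too narrow, and that exception is not a test. Around the alpha window, the left flank of 200 kb held 2 sites (10 per Mb, 1.21 to 36.1), of 303 and 314 bp, and the right flank held 9 (45 per Mb, 20.6 to 85.4), of 293 to 782 bp. Each beta flank held 1 site (5 per Mb, 0.127 to 27.9), of 310 bp on the left and 256 bp on the right. Over 1 Mb, the alpha window had 12 sites to its left and 37 to its right, and the beta window 1 and 19. Of the 19, 1 was the site of the right flank, and the others lay past an empty stretch and reached a width of 1306 bp.

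**Figure D2:**
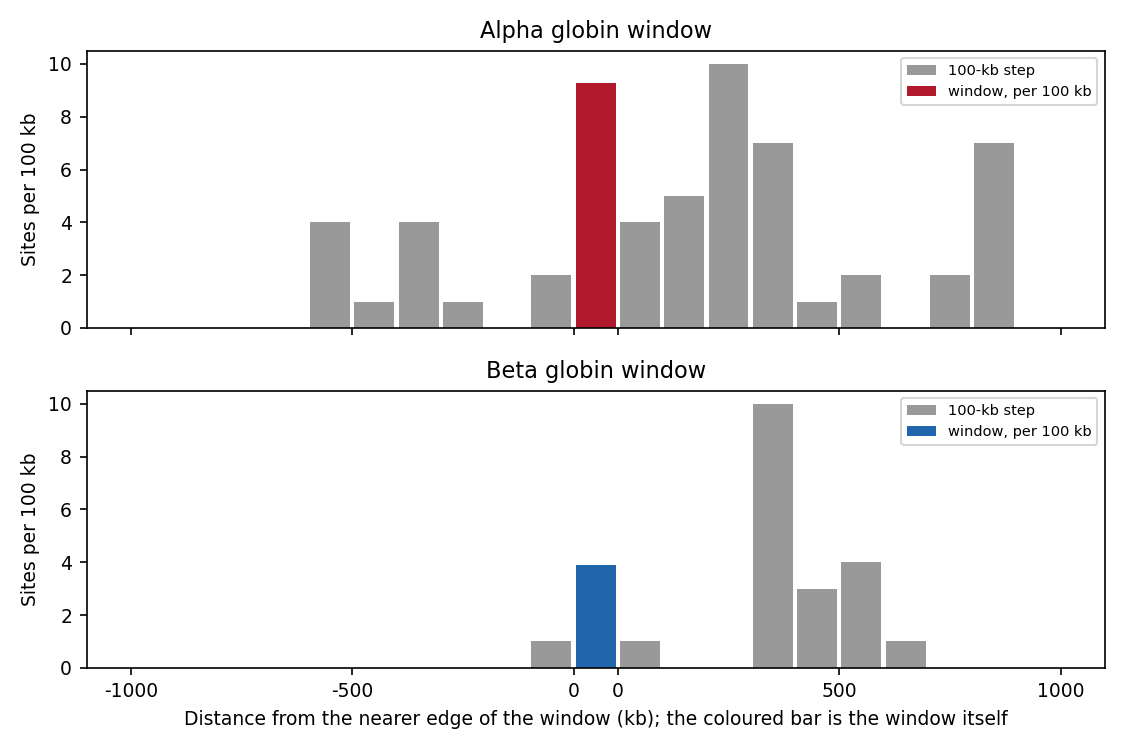
DNaseI sites per 100 kb (vertical) in steps of 100 kb out to 1000 kb from the edges of the alpha (top) and beta (bottom) windows (horizontal, kb), with the window itself as the coloured bar, scaled to 100 kb. The beta window stands between steps with 1 site on each side, and 9 further steps to its left are empty.

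The beta sites therefore formed an isolated group. Together with the nearest site on each side they made 9 sites in 230.7 kb (110860739 to 111091417), with a median width of 310 bp. To the left, 1016 kb passed without a site (109844394 to 110860738), a stretch that only 0.833% of all gaps matched or exceeded. To the right, the next site came after 301.1 kb (111091418 to 111392535), which 2.37% of gaps matched or exceeded. When the autosomes were divided at every gap of more than 300 kb, a limit chosen after seeing these values, they fell into 1204 groups of sites. Of these, 26 held exactly 9 sites, the beta group being one, and the widest site of such a group had a median of 1606 bp. The beta group was the only one of the 26 whose widest site was at most 606 bp, but the limits of 9 sites and 606 bp are its own values. Of the 674 groups with 9 sites or more, 2 had no site wider than 606 bp, the beta group being one. Of 6414 tiles of 180 kb whose flanks together held at most 2 sites, as the beta flanks did, 69 (1.08%) held 7 sites or more, and 86.2% held none. Both limits are values of the beta window, and this comparison too was chosen after seeing the data. Among all 180-kb tiles the share with 7 sites or more was 22.6%. These shares describe the list and are not a test. Unknown sequence in the assembly and stretches where reads cannot be placed were not taken out of the gaps or tiles, and their part was not tested.

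**Figure D3:**
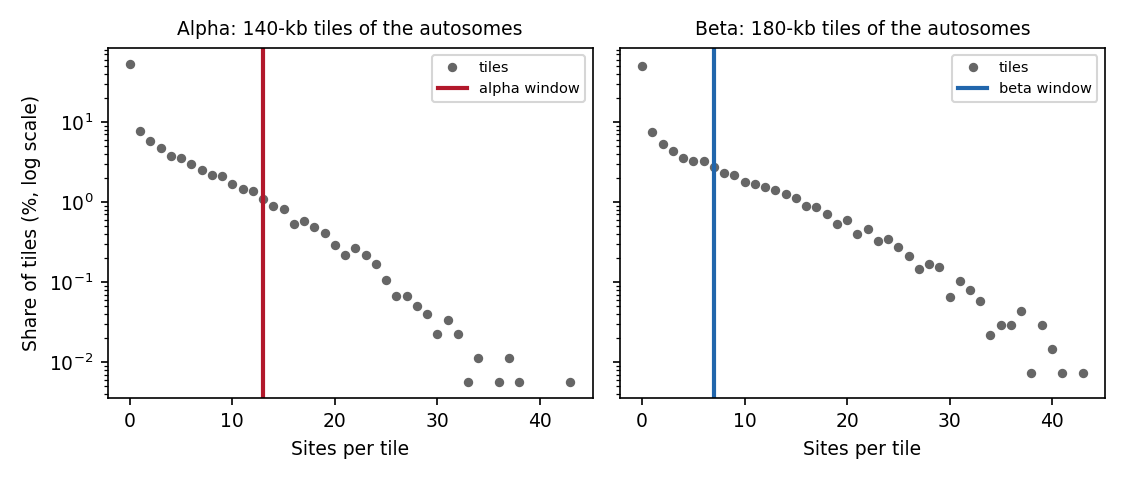
Share of autosomal tiles (%, vertical, log scale) by the number of DNaseI sites they hold (horizontal), for tiles of 140 kb (left) and 180 kb (right); the coloured lines mark the 13 sites of the alpha window and the 7 of the beta window. As many sites or more are held by 6.46% of the 140-kb tiles and by 22.6% of the 180-kb tiles.

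The promoters of the neighbourhoods differed in CpG, the dinucleotide that is dense at most promoters of widely expressed genes. Over the 300 bases from 250 before to 50 after the start, the median of 32851 RefSeq promoters was 7 CpG (quartiles 3 and 20). Genes next to the alpha cluster stood high in this range: Snrnp25, which encodes a protein of the minor spliceosome, and Mpg, a DNA glycosylase of base excision repair, had 22 each, and Nprl3 had 20. On the other side of the cluster, the adaptor gene Sh3pxd2b had 42, Ubtd2 41 and the kinase gene Stk10 39. The cytokine receptor gene Il9r had 5 and Efcab9, whose protein belongs to a sperm calcium channel, had 2. Within the alpha cluster, the adult genes Hba-a1 and Hba-a2 had 4 each, the embryonic gene Hba-x had 2, and the theta globin genes Hbq1b and Hbq1a had 13 and 8.

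The beta genes and their neighbours with a promoter in the table all lay below the median of 7 CpG. Some genes, among them Hbb-bh1 and Olfr632, had no promoter there. Hbb-bt had 1, Hbb-bs 2, Hbb-bh2 4 and the embryonic gene Hbb-y 1. The 10 olfactory receptor promoters beside them had 0 to 3. The adult genes of both clusters thus had CpG counts at or below 4, while the genes around them differed, with a median of 22 for 8 alpha neighbours and of 2 for 10 beta neighbours. The median GC share was 60.2% for the alpha neighbours, 53.3% for the alpha globin genes, 45.8% for the beta globin genes and 39% for the beta neighbours. The difference in CpG can be read in the 150 bases before the start of Mpg (chr11:32226355-32226504, plus strand, GRCm38.p6) and of Olfr67 (chr7:103791831-103791980, minus strand), with CpG in capitals. The stretch of Mpg holds 11 and that of Olfr67 holds 2.
Mpg: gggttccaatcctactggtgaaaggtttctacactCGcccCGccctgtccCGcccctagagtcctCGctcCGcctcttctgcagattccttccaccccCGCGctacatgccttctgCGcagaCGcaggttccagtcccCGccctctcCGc
Olfr67: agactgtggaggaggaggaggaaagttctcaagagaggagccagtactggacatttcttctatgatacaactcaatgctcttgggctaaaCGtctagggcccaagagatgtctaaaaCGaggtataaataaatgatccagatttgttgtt
Whether these promoters were accessible in the tumour was not analysed here.

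**Figure D4:**
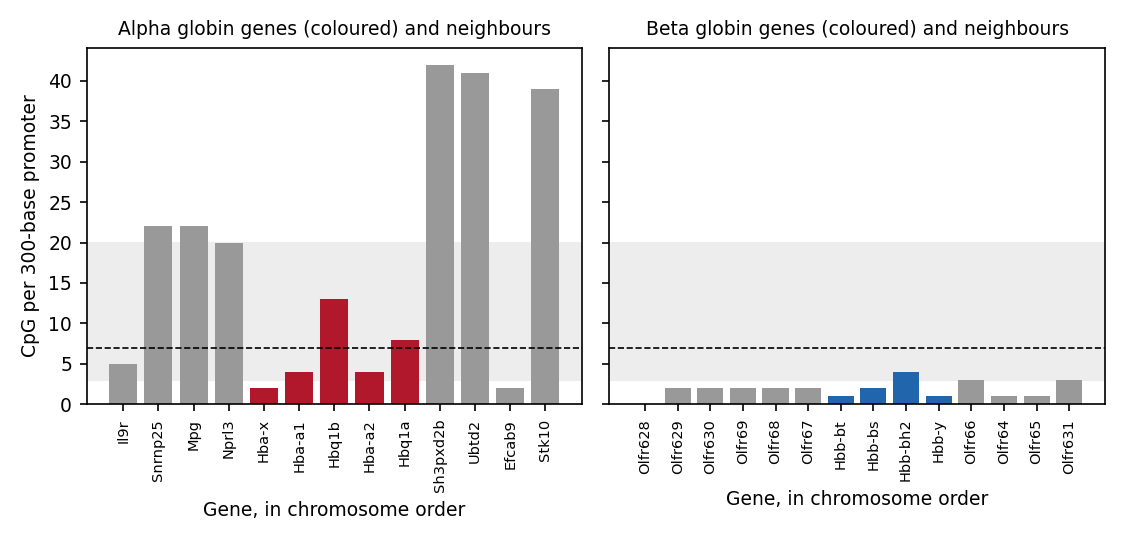
Number of CpG in the 300-base RefSeq promoter (vertical) of each gene in chromosome order (horizontal), for the alpha (left) and beta (right) globin genes, coloured, and their neighbours, grey. The dashed line is the median of 32851 promoters, 7, and the pale band their quartiles, 3 to 20; the globin genes of both clusters other than Hbq1a and Hbq1b lie at 4 or below.

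The searched motifs were counted in both clusters and set beside all promoters. GATAA occurred in 3 of 5 alpha globin promoters and in all 4 beta globin promoters in the table, against 25.4% of all promoters. CACCC occurred in 3 of 5 and 3 of 4, against 57.5%, so that the alpha share was close to the background. CCAAT occurred in 4 of 5 and 3 of 4, against 37.4%. TATAA occurred in 4 of 5 and 2 of 4, against 24.9%, and CATAAA in none of the alpha and 2 of the beta promoters, against 11.9%. The alpha promoters without GATAA and CACCC were Hbq1a and Hbq1b. Paralogs share sequence, so these promoters are not independent.

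Some of this sequence occurs more than once, which bears on how reads can be placed. The promoters of Hba-a1 and Hba-a2 were identical over all 297 bases that aligned, so that reads from within them match both genes. Those of Hbq1a and Hbq1b were identical at 286 of 300 bases, with a longest shared run of 105 bases. Those of Hbb-bt and Hbb-bs were identical at 219 of 293, and their longest shared run was 14 bases. The treatment of reads with several matches is not given in the sources used here. Whether duplication affected the listing of sites in the alpha window was not tested.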

How the data were processed

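Reads were placed on mm9, with BWA 0.6.2 and SAMtools named as tools, per the submitters' processing notes. How sites were called, with what threshold and whether against the input, is not given in the sources used. The authors deposited 1 row per site with its position in 3 columns, with no score or count. Positions are printed counted from 1.

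A site belonged to a window or flank if it overlapped it by 1 base or more. Gaps ran from the end of a site to the start of the next. Tiles of each window's length were laid from the first base of each autosome to its last site. Named genes were the members, the other globin genes and the 6 genes on each side of a cluster in the gene table; 14 globin gene names matched, 9 of them with a promoter in RefSeq's GRCm38.p6 table. Promoters were searched for 5 motifs on both strands and aligned with Biopython 1.88. Members and lists were chosen with earlier results of these data known. The counting was tested on simulated data. Calculations ran in Python 3.11.15 with scipy 1.17.1, pandas 2.3.3 and numpy 2.4.6, and figures in matplotlib 3.10.9. Placement of sites at genes and the planned cell type markers need an mm9 annotation and were not analysed here.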

Additional observations from a re-analysis of the deposited data

How the results depend on the processing

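Of 34 recomputed values, 23 stayed within counting error (motif counts within 1.5 times) and 11 moved. Most moves came from keeping only sites wider than the median, which removes small sites by construction: density fell to 35.7 per Mb in the alpha window, 15 in its right flank, and 0 in its left flank, the beta window and both beta flanks. The share of tiles with as many sites or more was 14.1% for the alpha window on chromosome 11 alone and 8.24% by bases covered, and for the beta window 24.3% on chromosome 7 alone and 32.3% by bases covered. CATAAA was in 1 beta globin promoter when the bases before the start alone were searched. Shifting the tiles, changing the window edges, joining sites at most 1 kb apart, requiring whole sites inside and flanks of 100 kb stayed within counting error. No paired analysis was possible because the result comes from 1 library and no test. Without read counts, no limit by depth can be given and no stricter signal cutoff was run.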
